A study of Mus musculus with 4 samples.

Results

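The genes described here are 8 genes of cholesterol efflux and lipid handling: the transporters Abcg1 and Abca1, the lipid-carrying secreted proteins Apoe, Apod and Clu, the lipase Lpl, and the lipid droplet coat proteins Plin2 and Plin4. They were chosen by symbol, and each symbol stood on exactly 1 row in all 4 libraries, out of 27998 genes listed for the cell libraries and 48816 for the nucleus library. The tissue was the stria vascularis (SV) of the cochlea, the epithelium that maintains the ion composition and electrical potential of the endolymph, from untreated CBA/J mice at postnatal day 30, with no transgene or deletion named in the labels. Whole cells were taken in 3 captures and nuclei in 1 capture, and each suspension was made from the pooled SV of several animals. The cell captures are the replicates, each from its own pool of mice by the study's methods. The p-values therefore rest on the spread between pooled captures and not between single animals. In the tests each gene's spread was also partly borrowed from the other tested genes.

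RNA of the cells (scRNA-Seq) and of the nuclei (snRNA-Seq) was sequenced from droplets, where each captured RNA molecule is counted once through its unique molecular identifier (UMI). The cell captures held 2811309 to 8340882 UMIs and the nucleus capture 22332501. After barcodes with under 200 genes and called doublets were removed, 377, 1315 and 1462 cells and 9754 nuclei remained, and any 2 libraries shared at most 32 barcode sequences. Clusters were named from marker genes that included none of the 8 genes, which gave 128 marginal, 1000 intermediate, 166 basal and 41 spindle/root cells, and 2608, 1474, 690 and 208 nuclei of those types. In both cells and nuclei, every marker of each of the 4 SV types and of macrophages was higher in its own type than in the other 4. The same markers had served to name the clusters and to pick the macrophages, so this is no independent check of the names. Another 18 cells and 9 nuclei were taken as macrophages from the blood barcodes because they held at least 3 UMIs of the complement genes C1qa, C1qb and C1qc and at least 4 macrophage markers. The 18 cells held 17 to 121 such C1q UMIs, so none lay near that limit of 3, while 2 of the 9 nuclei held fewer than 2 times that number. In the cell captures, 52.3% of kept barcodes stayed unnamed, with a median of 56.9% of their UMIs from mitochondrial genes. The melanocyte gene Dct, a marker of intermediate cells, was also counted in marginal cells at 26.3% to 29.7% and in basal cells at 26.7% to 35.7% of its intermediate level, against 0.692% and 1.06% in erythroid cells.

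Cells dispose of excess cholesterol by passing it to lipoprotein particles outside the cell. ABCA1 loads lipid-poor apolipoproteins and ABCG1 loads maturing particles, and both genes are known targets of the liver X receptors, which sense oxysterols. Apolipoprotein E is the main lipid carrier made by macrophages and glia, apolipoprotein D is a lipocalin that binds small lipids, and clusterin (Clu, also called apolipoprotein J) is a secreted chaperone found on lipoproteins. Lipoprotein lipase hydrolyses the triglycerides of circulating particles, and the perilipins coat the droplets in which cells store neutral lipid.

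Promoter sequence in the reference table used here (RefSeq, GRCm38.p6) covered 5 of the 8 genes, and Abcg1, Clu and Lpl had no entry. The 250 bases before the start are shown for the genes that led in each of 3 cell types, with Abca1 for intermediate cells, Apoe for macrophages (the most upstream of its 3 listed starts), and Apod and Plin4 for basal cells. Capitals mark a TATA box (TATAAA) or an E-box (CACGTG), searched on both strands; the windows printed without capitals held neither, nor the nuclear receptor hexamer AGGTCA.
Abca1, chr4:53159896-53160145, minus strand: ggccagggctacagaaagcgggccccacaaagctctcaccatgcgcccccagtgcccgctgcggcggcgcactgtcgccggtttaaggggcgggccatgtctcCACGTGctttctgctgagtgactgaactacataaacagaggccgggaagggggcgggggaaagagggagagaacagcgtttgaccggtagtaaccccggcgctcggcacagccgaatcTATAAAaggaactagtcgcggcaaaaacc
Apoe, chr7:19699189-19699438, minus strand: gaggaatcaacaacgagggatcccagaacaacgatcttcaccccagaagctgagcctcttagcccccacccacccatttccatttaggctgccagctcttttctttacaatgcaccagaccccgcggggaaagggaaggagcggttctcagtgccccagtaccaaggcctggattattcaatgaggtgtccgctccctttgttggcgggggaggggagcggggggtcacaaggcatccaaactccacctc
Apod, chr16:31314809-31315058, minus strand: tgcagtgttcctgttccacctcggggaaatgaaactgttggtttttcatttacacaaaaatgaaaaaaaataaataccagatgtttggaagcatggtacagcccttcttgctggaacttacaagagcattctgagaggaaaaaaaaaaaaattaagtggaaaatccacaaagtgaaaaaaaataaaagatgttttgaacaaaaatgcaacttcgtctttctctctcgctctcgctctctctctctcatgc
Plin4, chr17:56109783-56110032, minus strand: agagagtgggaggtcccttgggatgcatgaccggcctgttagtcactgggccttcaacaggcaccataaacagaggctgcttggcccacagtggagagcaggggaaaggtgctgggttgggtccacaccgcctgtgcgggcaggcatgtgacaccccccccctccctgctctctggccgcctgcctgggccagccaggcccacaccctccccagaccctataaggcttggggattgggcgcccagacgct
Of 32851 such windows in the table, 12.4% held TATAAA, 6.02% held CACGTG and 14.0% held AGGTCA on either strand. The Abca1 window held the TATA box at 29 to 24 bases and the E-box at 147 to 142 bases before the start. The window of another listed Apoe start, not printed, held TATA box matches at 100 to 95 and 96 to 91 bases before that start. A match or its absence describes letters and not a bound factor.

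The 8 genes divided among the cell types of the SV. Abcg1 was highest in marginal cells, Abca1 in intermediate cells, Apod, Clu and Plin4 in basal cells with Clu also high in spindle/root cells, and Apoe in macrophages, while Plin2 was low in every SV type and Lpl had no UMI in any SV type or macrophage of the cell captures. Levels are given as CPM, the UMIs of a gene scaled to 1000000 UMIs of its type in a capture. For the tests, UMIs were summed per capture and type, and each SV type was set against the average of the remaining 3 with capture as a block (edgeR, quasi-likelihood, p-values adjusted by Benjamini-Hochberg over 6633 genes). Of the 8 genes, 6 passed the filter on low counts, and Lpl and Plin2 were not tested. In marginal cells 1 of the 8 was higher and 3 were lower, where 15.3% and 12.3% of all tested genes were called in those directions. In intermediate cells 2 were higher and 3 lower, against 19.8% and 20.5% of all genes. In basal cells 4 were higher and 1 lower, against 16.5% and 11.7%, and in spindle/root cells 2 were higher and 1 lower, against 14.7% and 10%. Macrophages, tested against the mean of the 4 SV types, had 1 of the 8 higher and 0 lower, against 6.07% and 12.2% of 7664 genes. That fit used 2 captures, since the first held 4 macrophages, under the 5 cells required of a sum.

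**Figure D1:**
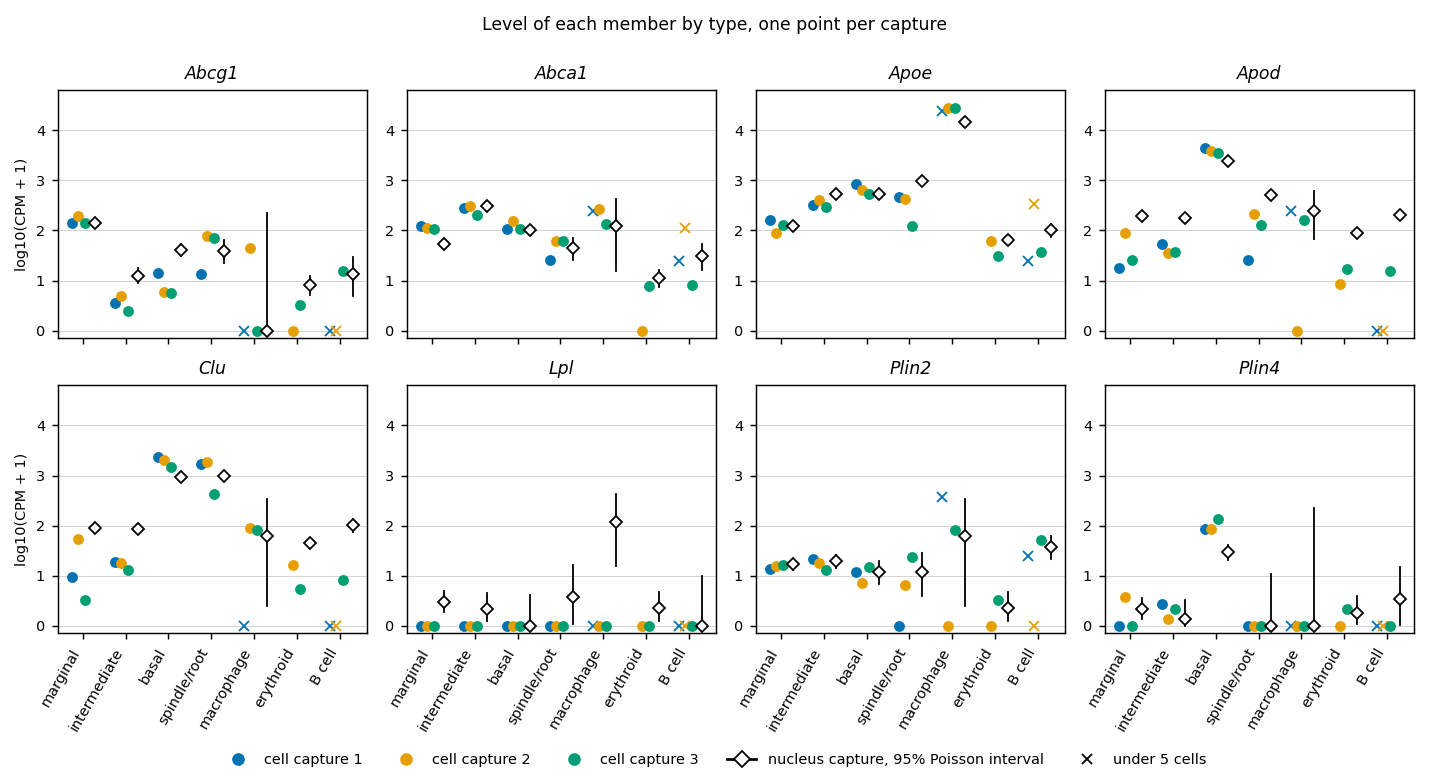
Level of each gene by cell type, on a scale of log10(CPM + 1), with 1 circle per cell capture (a cross where the sum held under 5 cells) and a diamond for the nucleus capture with its exact 95% Poisson interval, which covers counting error only. Apoe in macrophages stood above every other type drawn in all 3 cell captures, and Apod and Plin4 did so in basal cells.

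**Figure D2:**
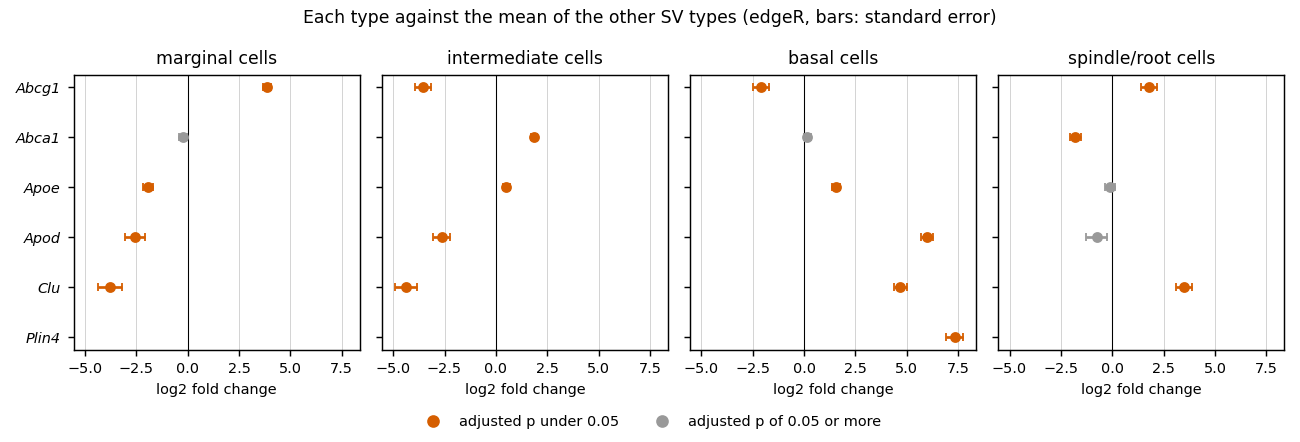
Fitted log2 fold change of each SV type against the mean of the other 3 SV types over 3 captures, with a standard error derived from the test statistic. Plin4 is drawn for basal cells alone because the other types held 0 to 3 of its UMIs per capture.

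Abcg1 (ENSMUSG00000024030), which exports cholesterol to maturing lipoproteins, lies on the plus strand at chr17:31057675-31117988 (GRCm38). In marginal cells, the potassium-secreting cells that face the endolymph, its level was 138, 195 and 142 CPM in captures 1 to 3. Spindle/root cells held 12.3, 75.7 and 68.6, basal cells 13.4, 4.89 and 4.57, and intermediate cells 2.65, 3.85 and 1.50. The marginal values overlapped those of no other SV type. The ranges of basal and intermediate cells did not overlap either, but they rested on only 11 and 18 UMIs over the 3 captures. Against the other SV types, Abcg1 was higher in marginal cells by a log2 fold change of 3.86 ± 0.21 (SE; edgeR adjusted p = 2.13e-21), in 3 of 3 captures. In spindle/root cells it was higher by 1.78 ± 0.40 (edgeR adjusted p = 0.000465). By log2 level with 1 count added, that direction was seen in 3 of 3 captures. Without the added count, the spindle/root level of 12.3 CPM in capture 1 lay below the basal 13.4. It was lower in intermediate cells, at -3.54 ± 0.38 (edgeR adjusted p = 3.60e-11), and in basal cells, at -2.10 ± 0.41 (edgeR adjusted p = 5.47e-05). The spindle/root value rested on 1 UMI in the first capture, and without the second capture that call was lost (edgeR adjusted p = 0.0543), as was the basal one (edgeR adjusted p = 0.0970). Macrophages held 1 Abcg1 UMI in all, which allows no statement on their level. In nuclei, Abcg1 stood at 141 CPM in marginal nuclei (95% interval 129.9 to 152), 3.53 times the basal and 12.1 times the intermediate level. Of all Abcg1 UMIs in kept barcodes, 61.6% in cells and 63.3% in nuclei were in marginal barcodes, which made up 4.06% of kept cells and 26.7% of kept nuclei.

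Abca1 (ENSMUSG00000015243), which loads cholesterol and phospholipid onto apolipoproteins at the plasma membrane, lies on the minus strand at chr4:53030787-53159895. Intermediate cells, the melanocyte-like cells of the SV, held 286, 309 and 199.9 CPM. Basal cells held 105, 150.3 and 108, marginal cells 122, 109 and 108, and spindle/root cells 24.5, 59.5 and 61.0. Intermediate values lay above those of all other SV types in every capture, basal and marginal cells overlapped, and spindle/root cells were lowest. The log2 fold change was 1.86 ± 0.13 in intermediate cells (edgeR adjusted p = 3.61e-17) and -1.80 ± 0.28 in spindle/root cells (edgeR adjusted p = 7.62e-07). In marginal cells it was -0.22 ± 0.18 (edgeR adjusted p = 0.411) and in basal cells 0.16 ± 0.17 (edgeR adjusted p = 0.525). Macrophages held 248, 261 and 133 CPM, from 13 UMIs in all, a range that overlapped that of intermediate cells (fitted log2 fold change 0.02 ± 0.45 against the 4 SV types, edgeR adjusted p = 0.993). Erythroid cells held 0 and 6.75 in captures 2 and 3.

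Between clusters of marginal cells, the Abca1 level moved with Dct. Marginal cells formed 2 clusters, and the first held 167, 147 and 135 CPM of Abca1 with 9014, 7049 and 5942 of Dct, while the second held 14.1, 44.1 and 58.2 with 1309, 1850.4 and 1106. The Abca1 levels of the second cluster rested on 1, 12 and 9 UMIs. Abca1 in marginal cells as a whole stood at 35.3% to 54.1% and in basal cells at 36.7% to 53.8% of the intermediate level of the same capture, at or above the Dct percentages given above in each of the 3 captures. Macrophages stood at 66.7% to 86.8% for Abca1 and at 0.548% to 2.44% for Dct. The part that RNA of intermediate cells had in these levels was not tested. In nuclei, where intermediate nuclei held 303 CPM (95% interval 282 to 325), Abca1 in marginal nuclei was 5.68 times lower (95% interval 4.90 to 6.60), against 2.36 times in cells (95% interval 2.00 to 2.79).

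**Figure D3:**
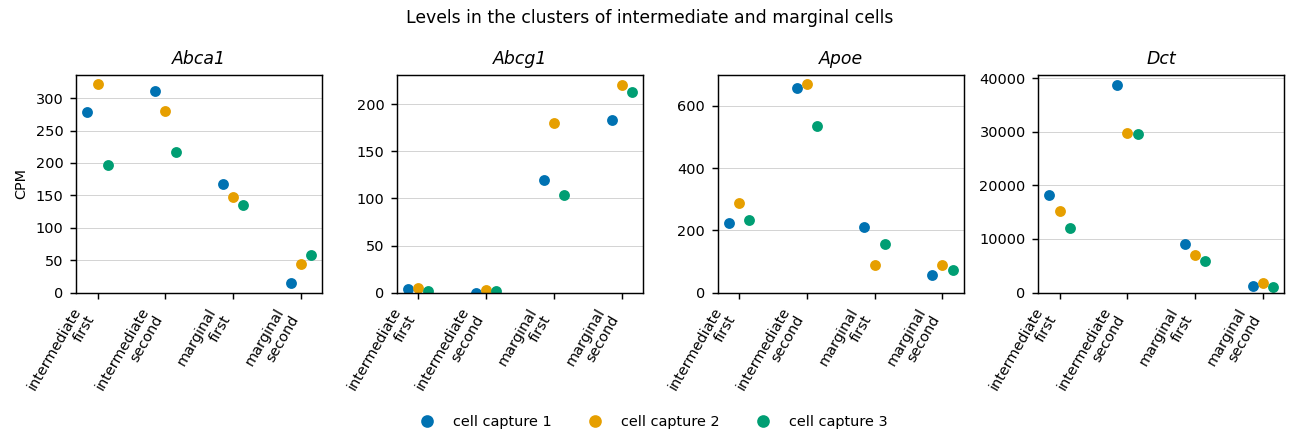
CPM of Abca1, Abcg1, Apoe and Dct in the 2 clusters of intermediate cells and the 2 of marginal cells, 1 point per cell capture. Abca1 and Dct were both lower in the second marginal cluster in all 3 captures, while Abcg1 was higher there.

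The clusters within types differed for other members as well. In all 3 captures Abcg1 was higher in the second marginal cluster (183, 221 and 213 CPM) than in the first (120, 181 and 104). These levels rested on 13, 60 and 33 UMIs against 20, 85 and 30, so they carry wide counting error. Intermediate cells also formed 2 clusters, of 622 cells with a median of 40.7% mitochondrial UMIs and of 378 cells with 12.97%. Abca1 stood at 260.1 and 266 CPM in them. Apoe stood at 222, 288 and 233 CPM in the first cluster and 659, 669.9 and 535 in the second, with no overlap between them. The second cluster also held more CPM of the nuclear RNA Malat1, at 123190 against 35330. CPM is scaled to all UMIs, mitochondrial ones included, so the unlike mitochondrial shares enter each of these contrasts. Levels per non-mitochondrial UMI were not compared. These are descriptions of clusters built from the same cells and carry no test.

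Apoe (ENSMUSG00000002985), the main apolipoprotein of macrophages and glia, lies on the minus strand at chr7:19696109-19699188. The macrophages held 24684, 27234 and 28340.4 CPM of Apoe in captures 1 to 3, from 4, 5 and 9 cells. Basal cells came next with 836, 649 and 539.8, followed by intermediate cells with 317, 401 and 288, spindle/root cells with 466, 416 and 122, and marginal cells with 164, 88.9 and 126. Macrophages were far above every SV type, basal and intermediate cells did not overlap, and spindle/root cells overlapped both intermediate and marginal cells through capture 3. Over the summed captures macrophages stood 41.6 times above basal cells (95% counting interval 38.6 to 44.9) and 244 times above marginal cells (207 to 288). The log2 fold change of macrophages against the mean of the SV types was 5.94 ± 0.14 (edgeR adjusted p = 1.27e-91), higher in 2 of 2 captures, where the median of all genes in that comparison was -0.94. The rule that picked the macrophages was set after their Apoe counts had been seen, so this p-value is not independent of that choice. These 18 cells were 0.571% of the kept cells and held 24.2% of their Apoe UMIs.

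Among the SV types, Apoe was higher in basal cells, by 1.56 ± 0.18 on the log2 scale (edgeR adjusted p = 2.14e-06), and lower in marginal cells, at -1.93 ± 0.23 (edgeR adjusted p = 4.84e-06), each in 3 of 3 captures. Intermediate cells passed the threshold at 0.50 ± 0.17 (edgeR adjusted p = 0.0314) with 2 of 3 captures in that direction, and the call was lost under 7 of 12 other settings. Spindle/root cells were at -0.12 ± 0.25 (edgeR adjusted p = 0.778). Erythroid cells held 60.2 and 30.4 CPM in captures 2 and 3, below every SV type there. Without the C1q rule, with the macrophage cluster of 17 cells taken whole, 12 of which were among the 18, the macrophage log2 fold change was 5.16. In nuclei, the 9 macrophages held 14526 CPM (95% interval 12757 to 16472), 14.7 times the level of spindle/root nuclei, the next of the SV types. Spindle/root nuclei held 991 CPM, intermediate 537, basal 534 and marginal 125. The lead of basal over the other SV types in cells was thus not seen in nuclei.

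Apod (ENSMUSG00000022548), a lipocalin that binds arachidonic acid and other small lipids, lies on the minus strand at chr16:31296192-31314808. Basal cells, the flat cells joined by tight junctions at the lateral face of the SV, held 4513, 3868 and 3477 CPM. Spindle/root cells held 24.5, 216 and 130, marginal cells 16.8, 87.6 and 24.8, and intermediate cells 52.2, 35.0 and 36.5. Basal cells stood far above the other types, whose ranges overlapped one another. The log2 fold change in basal cells was 5.96 ± 0.29 (edgeR adjusted p = 1.03e-06), with lower values in intermediate cells, at -2.64 ± 0.41 (edgeR adjusted p = 0.00108), and in marginal cells, at -2.56 ± 0.47 (edgeR adjusted p = 0.00437). Without the third capture the calls in intermediate and marginal cells were lost (edgeR adjusted p = 0.0559 and 0.151). Erythroid cells held 7.52 and 15.7 in captures 2 and 3. In nuclei the spread between the SV types was smaller. Basal nuclei held 2392 CPM (95% interval 2305 to 2481), 4.77 times the spindle/root level and 13.6 times the intermediate level, and erythroid nuclei held 86.6. Outside the SV types, fibrocyte nuclei held more Apod than basal nuclei, at 4081 CPM. An unnamed cluster of whole cells with fibrocyte and basal markers held 5290 CPM.

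Clu (ENSMUSG00000022037), a secreted chaperone, lies on the plus strand at chr14:65968483-65981547. Basal cells held 2309, 2011 and 1455 CPM and spindle/root cells 1706, 1871 and 419, whereas marginal cells held 8.39, 52.5 and 2.25 and intermediate cells 17.7, 17.2 and 12.0. The 2 high types overlapped each other and stood above the 2 low types in every capture, and the third capture gave the lowest value in both. The log2 fold change was 4.68 ± 0.33 in basal cells (edgeR adjusted p = 3.43e-05) and 3.48 ± 0.38 in spindle/root cells (edgeR adjusted p = 0.000523). Clu was lower in intermediate cells, at -4.38 ± 0.54 (edgeR adjusted p = 0.000488), and in marginal cells, at -3.77 ± 0.57 (edgeR adjusted p = 0.00251), a call that was lost without the first capture (edgeR adjusted p = 0.0778). Erythroid cells held 5.87 CPM over captures 2 and 3, within the range of marginal cells. Spindle/root nuclei held 958 and basal nuclei 935 CPM, a ratio of 1.03 (95% interval 0.907 to 1.16). With called doublets kept, the levels were 698 in 292 spindle/root nuclei and 910 in basal nuclei.

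Spindle/root nuclei formed 3 clusters, which the 3 secreted carriers divided differently. The 76 nuclei led by Epyc and Kcnj16 held 1659 CPM of Clu (95% interval 1461 to 1878), against 481 (381 to 599.6) in the 100 nuclei with Anxa1 and 386 (233 to 603) in the 32 nuclei with Lgr5 and Slc26a4. Apoe was at 1310.4, 938 and 183 in the same order. Apod was instead highest in the Anxa1 nuclei, at 871 (734 to 1026), against 204 and 183. Clu and Apoe thus led in the same cluster and Apod in another; these intervals cover counting error in 1 library only. Among basal nuclei, 41 formed a cluster of their own that also held 17340 CPM of Dct, and they held 304 of Abca1 against 85.0 in the other 649, and 1369.85 of Apod against 2469.85.

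Plin4 (ENSMUSG00000002831), a perilipin known from adipocytes and muscle, lies on the minus strand at chr17:56100591-56109803, where 17 bases of it overlap the opposite-strand gene Hdgfl2. Basal cells held 83.3, 85.5 and 137 CPM, from 31, 70 and 60 UMIs. Marginal cells held 2 UMIs and intermediate cells 6 in all, and spindle/root cells and macrophages held 0. Basal cells carried 92.0% of the 175 Plin4 UMIs of the cell captures and overlapped no other type. The log2 fold change in basal cells was 7.33 ± 0.41 (edgeR adjusted p = 2.24e-20), a size that depends on how 0 counts are handled. Counted directly, basal cells stood 110 times above intermediate cells (95% counting interval 49.2 to 303). Against spindle/root cells the ratio was 13.1 if their floor is taken as 3 UMIs over the 3 captures, and its lower 95% counting limit was 10.5. In nuclei, 34 of 54 Plin4 UMIs were in basal nuclei, at 28.2 CPM (95% interval 19.6 to 39.5).

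Plin2 (ENSMUSG00000028494), the perilipin found on droplets of most cells, lies on the minus strand at chr4:86648386-86670060. It held 20.4, 17.2 and 12.0 CPM in intermediate cells, 12.6, 14.8 and 15.8 in marginal cells, 10.8, 6.11 and 13.7 in basal cells, and 0, 5.41 and 22.9 in spindle/root cells. These ranges all overlapped. Without the filter on low counts the largest log2 fold change among SV types was 0.83 ± 0.33 in intermediate cells (edgeR adjusted p = 0.0536). Macrophages held 3, 0 and 3 UMIs in the 3 captures, 5.598 times the intermediate level over the summed captures with a counting interval of 2.01 to 12.6. In nuclei Plin2 stood at 18.4 CPM in intermediate and 15.8 in marginal nuclei, with overlapping intervals.

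Lpl (ENSMUSG00000015568), the lipase of circulating triglyceride-rich particles, lies on the plus strand at chr8:68880491-68907448. No Lpl UMI was counted in the 4 SV types or in macrophages of the cell captures, and the 2 UMIs found were in neutrophils. A count of 0 allows up to 0.451 CPM in intermediate cells, 1.84 in basal, 2.11 in marginal and 7.55 in spindle/root cells, and 43.8 in macrophages. In nuclei it was at 2.03 CPM in marginal nuclei (95% interval 0.930 to 3.86, from 9 UMIs) and at 120 in the 9 macrophages (14.5 to 432, from 2 UMIs).

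Because depth differed between types, the share of barcodes with a UMI was also taken after each barcode was thinned to 1000 UMIs (500 in nuclei), which left out no barcode of these types. Apod was then found in 100%, 89.7% and 89.1% of basal cells and Clu in 79.2%, 78.2% and 64.1%, against 0% to 2.35% of erythroid cells. Apoe was found in 80.0% and 100% of macrophages, 37.5% to 46.2% of basal cells and 27.2% to 36.3% of intermediate cells, against 0% and 3.53% of erythroid cells. Abca1 was found in 17.6% to 27.1% of intermediate cells and 5.56% to 12.2% of marginal cells, and Abcg1 in 11.1% to 17.4% of marginal cells and 0% to 0.226% of intermediate cells. Erythroid cells held Abca1 in 0% and 1.18% and Abcg1 in 0%. Before thinning, at median depths of 11536.5 UMIs in marginal and 6172.5 in intermediate cells, Abcg1 was found in 76.1% ± 4.7 of marginal and 1.90% ± 0.84 of intermediate cells (SD, n = 3 captures). Among the 4 SV types, the type with the highest share stayed the same for 6 of the 7 genes that had one, and Plin2 moved from marginal to intermediate cells.

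**Figure D4:**
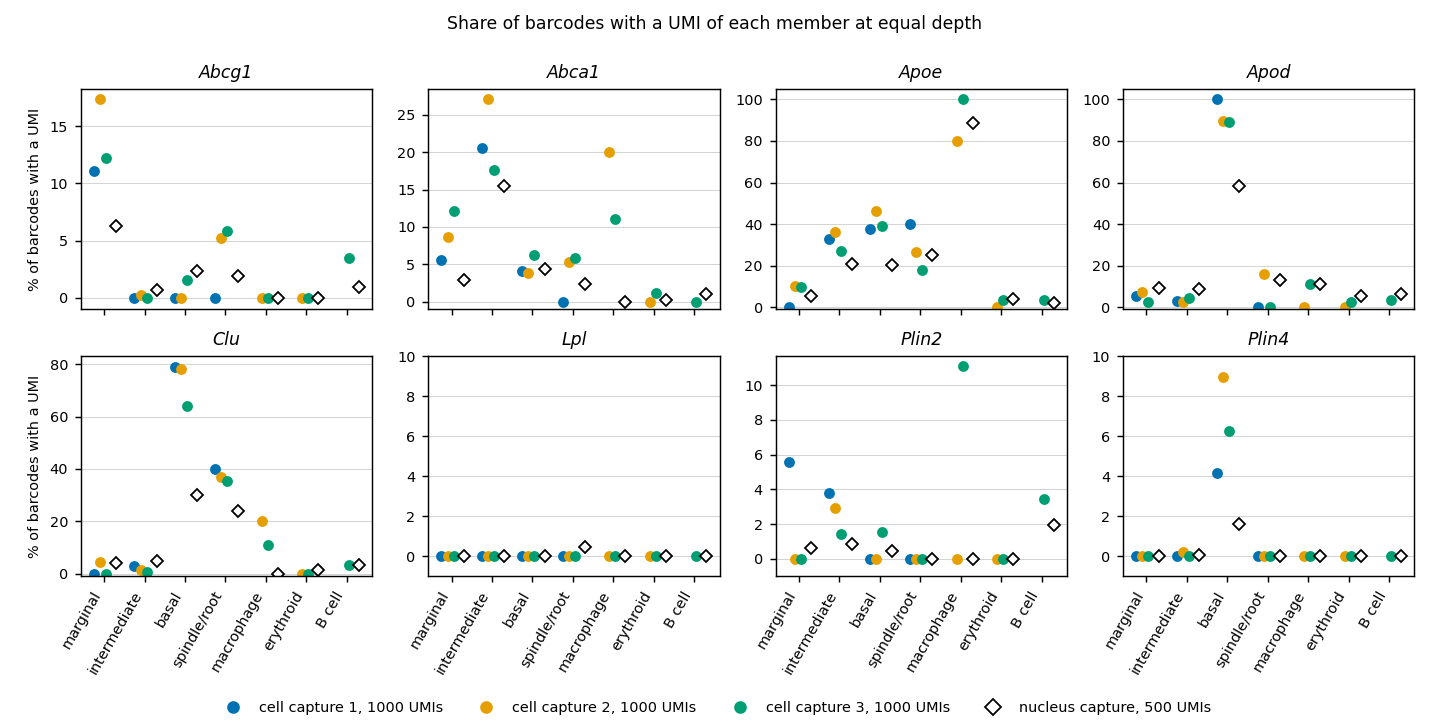
Percent of barcodes with at least 1 UMI of each gene after thinning to 1000 UMIs per cell (circles, 1 per capture) or 500 per nucleus (diamonds), by type. Basal cells reached 89.1% to 100% for Apod, and erythroid cells stayed at or under 3.53% for every gene.

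The UMIs of the 8 genes lay in different compartments of the data. Intermediate barcodes held 62.0% of the Abca1 UMIs in cells and 43.3% in nuclei, and made up 31.7% and 15.1% of the barcodes. Basal barcodes, 5.26% of cells and 7.07% of nuclei, held 76.6% of the Apod and 76.8% of the Clu UMIs in cells but 36.3% and 34.9% in nuclei. Marginal nuclei, 26.7% of the nuclei, held 10.9% of Apod and 12.1% of Clu. Fibrocyte nuclei, 1.66% of the nuclei, held 16.7% and 3.98%. Apoe was the most widely spread, with 29.1% in intermediate, 24.2% in macrophage and 13.8% in basal cells, and 28.5% in unnamed barcodes.

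**Figure D5:**
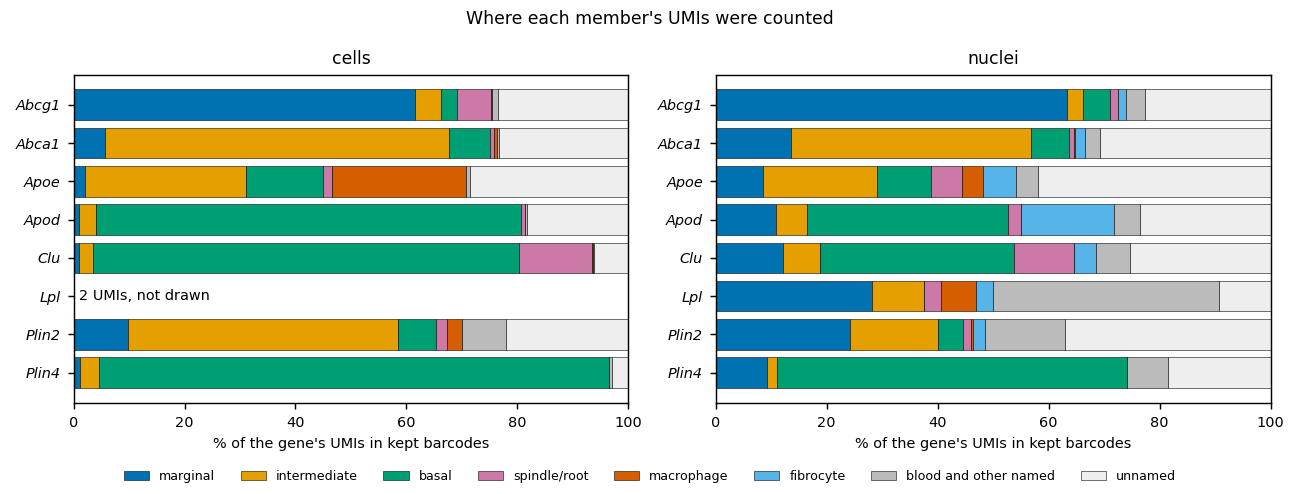
Percent of each gene's UMIs in kept barcodes by cell type, in the cell captures (left) and the nucleus capture (right). Abcg1 lay mostly in marginal and Plin4 mostly in basal barcodes in both, and Lpl is not drawn for cells because it had 2 UMIs.

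Across the 12 sums of type and capture, Pearson's r of log2 values was 0.90 for Apod with Plin4, 0.80 for Clu with Plin4 and 0.75 for Apod with Clu. Abcg1 and Apoe varied in opposite directions (r = -0.75). Types other than basal held few or no Plin4 UMIs, so the r values of Plin4 depend on how such low counts are handled. Clu and Plin4 parted in spindle/root cells, which held 419 to 1871 CPM of Clu and 0 UMIs of Plin4. The sums share captures and types, so all r values here are descriptions with no p. By the same measure the genes most like Abcg1 were Itgb5 (r = 0.99), Tnfrsf21 (0.98) and Lrp2 (0.98), and those most like Abca1 were Etv1, Nckap1 and Ifi27l2a (0.96 each). Apoe was closest to Epb41l2 (0.95), Qpct (0.92) and Fchsd2 (0.91), Apod to Nbl1 (0.99), Ppp1r1a (0.98) and Nudt4 (0.98), Clu to Hid1, Sparc (0.97 each) and Taldo1 (0.96), and Plin4 to Pdgfra (0.98) and Slc13a4 (0.97). The r values of Plin2 were lower, with Ola1 (0.85), Rmnd1 (0.84) and Tubgcp4 (0.81). Plin2 had failed the filter on low counts, with 4 UMIs in spindle/root, 15 in basal and 21 in marginal cells. Its r values therefore carry much counting error and say little about the gene.

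Around these genes, 107 other genes of cholesterol and lipid handling were listed in 8 groups, and 56 of them were tested between the SV types. In marginal cells 13 were higher and 10 lower, or 23.2% and 17.9% against 15.3% and 12.3% of all tested genes (median log2 fold change -0.09, against 0.00 over all genes). In intermediate cells 17 were higher and 9 lower, or 30.4% and 16.1% against 19.8% and 20.5% (median 0.25, against 0.00). In basal cells 15 were higher and 12 lower, or 26.8% and 21.4% against 16.5% and 11.7% (median 0.00, against 0.00). In spindle/root cells 7 were higher and 13 lower, or 12.5% and 23.2% against 14.7% and 10% (median -0.20, against -0.04). The balance of higher and lower genes turned in 2 of these types without library-composition (TMM) scaling, to 9 higher and 14 lower in intermediate cells and to 10 higher and 2 lower in spindle/root cells, where that setting moved the median of all genes to -0.31 and 0.22. In spindle/root cells the counts were also even or nearly so under DESeq2 (5 and 6) and without capture 1 (7 and 7), 2 (5 and 5) or 3 (7 and 7).

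In the group listed as efflux transporters and their nuclear receptors, the neuronal and oligodendrocyte transporter Abca2 was, like Abcg1, highest in marginal cells. It held 432, 494 and 525 CPM there, against 47.1 to 53.1 in intermediate cells (log2 fold change 2.29 ± 0.12, edgeR adjusted p = 2.76e-22). A place in that group does not mean that a gene exports cholesterol. Abca5 was lower in intermediate cells (-1.15 ± 0.23, edgeR adjusted p = 4.33e-05), and Mylip, the ligase that degrades the LDL receptor, was lower in spindle/root cells (-1.01 ± 0.30, edgeR adjusted p = 0.00984). The receptors for the carriers were divided too. Lrp1, a receptor for apolipoprotein E, was highest in basal cells, at 134, 169 and 119 CPM (3.97 ± 0.22, edgeR adjusted p = 8.21e-21). Lrp2 (megalin), an endocytic receptor for clusterin and other ligands, and Sorl1 were lower in intermediate cells (-3.87 ± 0.33 and -3.89 ± 0.21, edgeR adjusted p = 1.05e-05 and 3.02e-21), and Lrp2 held 2503 to 2530 CPM in marginal cells.

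Of the cholesterol synthesis genes, 7 of 15 tested were higher and 0 lower in intermediate cells, 3 and 2 in basal, 2 and 4 in marginal and 0 and 3 in spindle/root cells, where 19.8% and 20.5%, 16.5% and 11.7%, 15.3% and 12.3%, and 14.7% and 10% of all tested genes were called in those types. The difference between these counts was not tested. Of the 8 groups, counts are given for this one alone, and only under the main settings, with TMM scaling. Among the 7 genes higher in intermediate cells, Insig2 and Fdft1 were higher in 2 of 3 captures. By size, Insig1, the sterol-regulated brake on SREBP processing, was the leading gene, higher in basal cells at 333, 387 and 345 CPM (3.17 ± 0.15, edgeR adjusted p = 7.11e-24). Fdps was lower in marginal cells (-1.77 ± 0.54, edgeR adjusted p = 0.0108) and Idi1 lower in spindle/root cells (-1.28 ± 0.47, edgeR adjusted p = 0.0394). In the fatty acid group, basal cells were higher for the desaturase Scd1 (3.20 ± 0.11) and the acyl-CoA synthetase Acsl3 (2.48 ± 0.16) and lower for the binding protein Fabp3 (-1.96 ± 0.28), with edgeR adjusted p = 6.76e-29, 7.50e-19 and 1.14e-07.

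For stored lipid, the cholesterol-esterifying enzyme Soat1 was higher in basal cells (1.60 ± 0.23, edgeR adjusted p = 1.72e-07), where Plin4 was also highest, and Fitm2 was lower there (-1.46 ± 0.47, edgeR adjusted p = 0.0158). Plin3 and the monoacylglycerol lipase Mgll were higher in intermediate cells (0.86 ± 0.12 and 1.34 ± 0.13, edgeR adjusted p = 1.90e-08 and 6.04e-13). The lysosomal lipase Lipa and the lipase activator Abhd5 were lower in spindle/root cells (-3.32 ± 0.90 and -1.54 ± 0.53, edgeR adjusted p = 0.00388 and 0.0282). For transport within cells, Gramd1a was higher in intermediate cells (1.42 ± 0.24), Osbp was higher in marginal cells (1.21 ± 0.22) and Gramd1b was lower in basal cells (-1.51 ± 0.29), with edgeR adjusted p = 3.12e-06, 2.15e-05 and 5.37e-05.

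In macrophages 64 of the listed genes were tested, and 5 were higher and 11 lower than in the SV types, or 7.81% and 17.2% against 6.07% and 12.2% of all tested genes, with a median log2 fold change of -1.59 against -0.94 over all genes. The counts were 4 and 5 under DESeq2 and without capture 2, and 1 and 6 without capture 3. Among the 5 was the apolipoprotein gene Apoc1 (edgeR adjusted p = 9.21e-06), which held 1 and 4 UMIs in the macrophages of captures 2 and 3, 0 in marginal and intermediate cells, 2 in basal cells and 21, 4 and 0 in spindle/root cells, so no fold is given. The others were the lysosomal lipase Lipa (2.80 ± 0.71), the fatty acyl-CoA synthetase Acsl5 (2.36 ± 0.86), the receptor Lrp1 (2.28 ± 0.66) and the lysosomal cholesterol carrier Npc2 (1.68 ± 0.23). In that order these 4 had edgeR adjusted p = 0.00108, 0.0375, 0.00497 and 2.12e-11.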

How the data were processed

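Whole-cell and nucleus suspensions of the stria vascularis were captured on a droplet platform. The deposited files hold raw UMI counts per gene and barcode, which the authors made with Cell Ranger 2.0.0 against mm10, per the labels. The counts were used as deposited. Barcodes with under 200 genes and doublets called by Scrublet (scanpy 1.11.5) were removed. Cells and nuclei were clustered separately with Seurat 5.3.0 (43 and 41 principal components, resolution 0.8), with the described genes and the 107 pathway genes kept out of the variable genes. Clusters were named from marker lists, by naming rules set after the clusters were seen.

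Macrophages were taken from blood clusters as barcodes with at least 3 C1q UMIs, at least 4 macrophage markers, more macrophage than neutrophil marker UMIs and under 10% erythroid marker UMIs. This rule replaced cluster membership after the marker UMIs and Apoe counts of these barcodes had been seen and before any test was run.

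UMIs were summed per capture and type (at least 5 cells) and tested with edgeR 4.0.16 in R 4.3.3 (quasi-likelihood, robust, TMM scaling, filterByExpr, capture as block), with adjusted p under 0.05 as the threshold. The sums left 6 residual degrees of freedom between SV types and 7 with macrophages. The fit draws each gene's spread toward that of the other tested genes, so very small p-values rest partly on this shared spread. Standard errors of log2 fold changes are the absolute fold change divided by the square root of the test's F statistic. They share that spread and are unreliable where counts are 0. The block follows from the shared suspension and library: deviations of same-capture sums correlated at a median r of 0.0764, over 0.1 in 6 of 18 pairs. Levels are CPM, UMIs of a gene scaled to 1000000 UMIs of the type. Intervals for levels, ratios and counts of 0 (3 counts) are Poisson-based and cover counting error only, and the nucleus capture has no replicate and no test. On simulated counts with 200 changed genes, 70.1% to 96.9% of 4-fold and 9.57% to 30.1% of 2-fold changes were recovered between SV types, and 3.45% to 8.33% of calls were false. The simulation gave all genes the same spread and no capture effect, so it does not measure the recovery in the data themselves. Positions are from GENCODE on GRCm38.

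The described genes and lists were chosen with earlier results of these data known. Genes most like each gene were the 3 with the highest Pearson's r (1 of them is not reported here), and pathway genes were named as up to 3 largest changes between SV types past the threshold in each group, with at least 50 UMIs and 1 direction in every capture. The 5 pathway genes higher in macrophages, and the marginal values of Lrp2, were named after their values were seen. Alternatives were DESeq2 1.42.0, other scaling, filters, clusterings and single captures left out.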

Additional observations from a re-analysis of the deposited data

Results flagged for a closer look

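Some values stood in barcodes outside the comparisons between SV types and macrophages and above the level in erythroid barcodes. Fibrocyte nuclei (162), from the connective tissue beside the stria, held 4081.06 CPM of Apod (95% Poisson interval 3864 to 4307), above the 2392 of basal nuclei, and 1220.93 of Apoe (1104 to 1347). Neutrophil nuclei (72) held 48.7406 CPM of Lpl from 9 UMIs (22.3 to 92.5) and 124.559 CPM of Plin2 from 23 UMIs (79.0 to 187), against 1.25 for each gene in erythroid nuclei. In whole cells, an unnamed cluster of 40 cells with raised markers of both basal cells and fibrocytes held 5289.52 CPM of Apod and 4313.45 of Apoe. Groups of 3 captures were too small for a check of single outlying samples.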

How the results depend on the processing

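Over 30 gene results with a test, 320 of 348 values under the alternatives kept their direction and side of the threshold, 12 lost the call, 5 gained one and 11 changed sign. Blood clustering at resolutions 0.4 and 1.2 gave the same macrophage barcodes as the macrophage cluster taken whole and is counted once with it. The count of the 8 genes higher in intermediate cells (2) was 1 under DESeq2, without TMM scaling, without the capture block, with at least 10 cells per sum, with the described and pathway genes allowed in clustering, and under 50% mitochondrial UMIs, and 1 to 2 with single captures left out. In spindle/root cells (2) it was 1 to 2 with single captures left out. The pathway count in marginal cells (13) was 7 to 11 with single captures left out, and in intermediate cells (17) it was 10 under DESeq2 and 9 without TMM scaling. Sign changes were in values with no call. Abca1 in macrophages (0.02 on the log2 scale) was at -0.0192 without the capture block, -0.1193 to 0.0753 with single captures left out, -0.039 with doublets kept, -0.0262 at cluster resolution 1.2, -0.0197 with those genes allowed, and -0.55 with macrophages taken by cluster, an alternative added after seeing the data. Apoe in spindle/root cells was at 0.14 without TMM scaling and -0.4391 to 0.2497 with single captures left out, Plin4 in intermediate cells at -1.649 to 0.0028 with single captures left out, and Plin4 in macrophages at 0.22 under DESeq2. The cause was not tested. Scaling without TMM turned 1312 higher and 1358 lower genes in intermediate cells into 733 and 2463, and 976 and 666 in spindle/root cells into 1369 and 353. Without capture 2 or 3 a single macrophage sum was left, assumed to vary like the others. Resolution 0.4 was not run for cells, since it left no named marginal or spindle/root cells. In nuclei, 5 levels left their main counting interval under an alternative. With doublets kept, Clu in spindle/root nuclei was at 698 CPM against 958, and Apoe there at 698 against 991. No paired analysis was possible for nuclei because there was 1 nucleus capture.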
